A study of Homo sapiens with 8 samples.

Results

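The lipid-binding family described here has 7 members, the SEC14-like proteins SEC14L1 to SEC14L5 and the tocopherol transfer proteins TTPA and TTPAL. They were taken by gene name from a deposited table of 57773 genes, and every member had 1 row. The family was selected on the E2+DHT against E2 difference of SEC14L2, which was already known from these data, and the relatives were added by name. In libraries treated with estradiol and dihydrotestosterone the mean level of SEC14L2 was 4.16 times that in libraries treated with estradiol alone, while the levels of SEC14L1, TTPA and TTPAL overlapped between the treatments. Since the choice used this comparison, its values are given for all 7 members as a description, with no p-value.

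The RNA came from ZR-75-1, an established human breast cancer line that carries the estrogen receptor. The hormone treatments were compared with 4 libraries each. In E2+DHT the cells received 10 nM estradiol (E2) and 10 nM dihydrotestosterone (DHT), an androgen that is not converted to estrogen. In E2 they received 10 nM estradiol only. Both groups had first spent 72 h in steroid-depleted medium and were treated for 4 h, so both contain estradiol and an arm without hormone was not analysed here.

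The labels limit what the groups can show. Treatment and replicate number were read from the library name, which also heads the column of values. Title and treatment field name the other treatment in 4 of 8 records. The titles also give another replicate number in most records. Read record by record with the library names, passages 9 and 11 belong to E2+DHT and passages 8 and 10 to E2. On that reading passage and treatment cannot be told apart, and each group holds 2 libraries of each of its passages. Whether libraries of the same passage were separate cultures is not stated, so their spread may be technical, and the line is a single cell line. Read with the titles instead, each treatment holds a library of each of passages 8, 9, 10 and 11. Which label is right was not settled here. All 8 luminal markers were present, from ESR1 at a mean of 6.17 RPKM to KRT19 at 857 RPKM. Among the measured markers of basal, immune and endothelial cells the highest was VWF at 0.0817 RPKM, and PECAM1 was not analysed here. COL1A1 was at 0.80 RPKM, and the other fibroblast markers, COL1A2 and PDGFRB, were below 0.005 RPKM. Depth, worked out from the steps in the deposited values, was 19599217 to 34616639 reads per library in E2+DHT and 19955045 to 31913885 in E2. The share of those reads recovered inside the genes of the table was 83.2% to 84.8% in E2+DHT and 78.3% to 83.7% in E2.

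Proteins of this family fold around a greasy pocket, the CRAL-TRIO or Sec14 domain, named after the yeast phosphatidylinositol transfer protein Sec14. They pick up a lipid from a membrane and carry or present it elsewhere in the cell. TTPA, the alpha-tocopherol transfer protein, is the best understood. It lets the liver return vitamin E to the blood, and its loss causes a hereditary ataxia with vitamin E deficiency. SEC14L2 is also known as supernatant protein factor and as tocopherol-associated protein. It binds tocopherol and squalene, and in cell-free assays it stimulates the conversion of squalene on the way to cholesterol. SEC14L1 has been described as a brake on signalling by the viral RNA sensor RIG-I.

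SEC14L2 lies on the forward strand of chromosome 22, from 30792846 to 30821305 in the hg19 coordinates of the table. SEC14L3 (30843946 to 30868036) and SEC14L4 (30884900 to 30901698) follow on the reverse strand of the same chromosome. The promoters of these 3 genes are shown because the genes are close relatives and neighbours, while only SEC14L2 had more than 4 reads in any library. The sequences are from RefSeq on build GRCh38.p14, 250 bases before to 50 bases after the annotated start, 5′ to 3′ on the strand of the gene. Capitals mark the estrogen response half-site GGTCA or its reverse complement TGACC.
SEC14L2 (chr22:30396768-30397067, strand +): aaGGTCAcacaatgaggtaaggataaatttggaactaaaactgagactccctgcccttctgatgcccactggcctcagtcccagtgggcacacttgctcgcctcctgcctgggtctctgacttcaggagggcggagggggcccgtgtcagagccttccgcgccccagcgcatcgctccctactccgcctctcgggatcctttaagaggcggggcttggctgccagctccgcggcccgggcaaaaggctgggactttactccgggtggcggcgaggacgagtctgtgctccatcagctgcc
SEC14L3 (chr22:30471968-30472267, strand -): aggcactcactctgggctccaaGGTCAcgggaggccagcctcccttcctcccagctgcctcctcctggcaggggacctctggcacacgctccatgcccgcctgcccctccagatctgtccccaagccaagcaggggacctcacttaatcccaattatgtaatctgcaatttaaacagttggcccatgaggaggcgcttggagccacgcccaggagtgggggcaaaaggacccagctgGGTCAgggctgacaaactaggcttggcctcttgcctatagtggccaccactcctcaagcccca
SEC14L4 (chr22:30505646-30505945, strand -): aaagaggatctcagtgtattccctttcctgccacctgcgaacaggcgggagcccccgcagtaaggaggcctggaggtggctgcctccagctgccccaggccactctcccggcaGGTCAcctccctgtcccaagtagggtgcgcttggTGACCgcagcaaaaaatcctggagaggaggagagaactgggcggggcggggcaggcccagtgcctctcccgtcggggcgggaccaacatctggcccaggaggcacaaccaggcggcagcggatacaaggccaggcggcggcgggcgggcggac

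For each receptor, the full response element and its half-site, which is contained in the full element, were searched on both strands. The full androgen response element, spelled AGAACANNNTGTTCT, was in 0.00285% of 35116 promoter windows of this length, and the half-site AGAACA was in 14.8%. Neither was found in the windows of SEC14L2, SEC14L3 or SEC14L4. The full estrogen response element, GGTCANNNTGACC, was in 0.057% of all windows and in none of these 3. Its half-site GGTCA was in 37.4% of all windows, and it occurred 1 time in the window of SEC14L2, starting 248 bases before the gene start, and 2 times in each of the other two. Of the 7 members, 5 had a promoter in the table, with 7 windows in all. TTPA and TTPAL had no entry. The windows are short, and a match or its absence is a description of these letters only.

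SEC14L2 (ENSG00000100003) had 4.34, 3.35, 3.00 and 3.05 RPKM in E2+DHT replicates 1 to 4, against 1.08, 0.643, 0.904 and 0.677 RPKM in E2 replicates 1 to 4. RPKM scales a gene's reads to its exon length and to the depth of sequencing. Replicate 1 was the highest library of each treatment, and the groups did not overlap. The lowest E2+DHT library was 2.78 times as high as the highest E2 library. Behind these levels stood 898, 393, 619 and 583 reads in E2+DHT, against 206, 98, 108 and 83 reads in E2, recovered from the steps in the deposited values. The treatments thus summed to 2493 reads in E2+DHT and 495 in E2.

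The mean level of SEC14L2 was 3.44 ± 0.620 RPKM in E2+DHT and 0.826 ± 0.205 RPKM in E2 (SD, n = 4 each). On the scale of log2(RPKM + 0.5), which understates the change of a gene as low as this, its difference was 1.57 with a standard error of 0.131. Among all 11375 genes with a mean of at least 0.5 RPKM, this was the 4th highest log2 difference. Ranked by level within each library, SEC14L2 lay above 39.8% to 51.0% of those genes in E2+DHT and above 6.24% to 13.2% in E2. In bulk RNA, more cells with the transcript and more transcript per cell cannot be told apart.

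**Figure D1:**
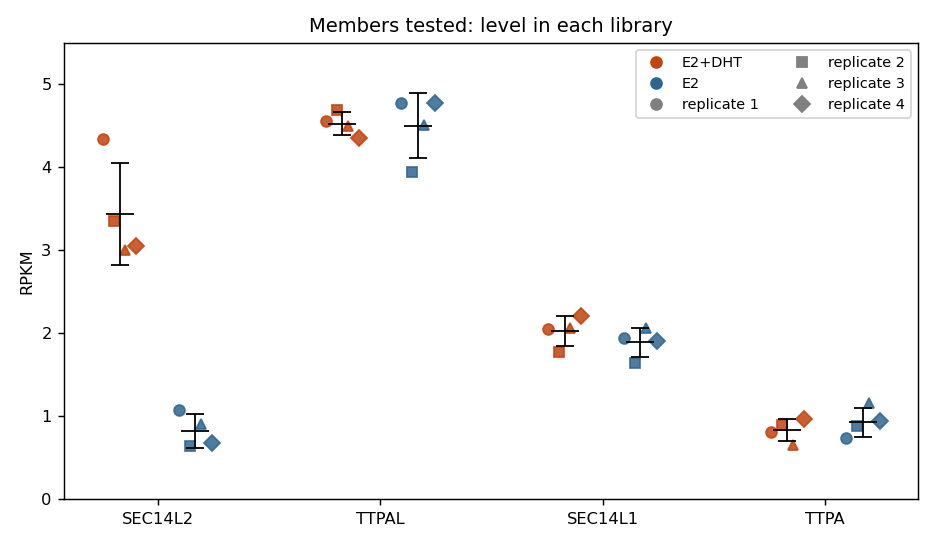
Level in RPKM (vertical axis) of the 4 members with a mean of at least 0.5 RPKM in the E2+DHT libraries (left of each pair) and the E2 libraries (right). Each point is a library, its shape gives the replicate number, and the bars are the mean and SD. SEC14L2 lies between 3.00 and 4.34 RPKM in E2+DHT, above its 0.643 to 1.08 RPKM in E2, while the points of TTPAL, SEC14L1 and TTPA overlap.

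TTPAL was the most abundant member in both treatments. TTPAL (ENSG00000124120, chromosome 20, 43104526 to 43123244) had 4.56, 4.69, 4.50 and 4.35 RPKM in E2+DHT replicates 1 to 4, against 4.77, 3.94, 4.50 and 4.78 RPKM in E2. Its means were 4.52 ± 0.141 RPKM in E2+DHT and 4.50 ± 0.394 RPKM in E2 (SD, n = 4 each), a log2 difference of 0.010 with a standard error of 0.073. The spread of TTPAL between E2 libraries was wider than the distance between the treatments, and its lowest value was in E2 replicate 2.

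SEC14L1 (ENSG00000129657, chromosome 17, 75082798 to 75213179) had 2.05, 1.78, 2.06 and 2.21 RPKM in E2+DHT replicates 1 to 4, against 1.95, 1.64, 2.07 and 1.90 RPKM in E2. The ranges overlapped over most of their length. The log2 difference of SEC14L1 was 0.080 with a standard error of 0.082, and 2682 reads in E2+DHT and 1996 in E2 stood behind it.

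TTPA (ENSG00000137561, chromosome 8, 63961112 to 63998612) is known as a liver protein, and it was measurable here at a low level. It had 0.81, 0.897, 0.656 and 0.971 RPKM in E2+DHT replicates 1 to 4, against 0.735, 0.887, 1.15 and 0.94 RPKM in E2. Each library held 42 to 74 reads of it in E2+DHT and 46 to 56 in E2. The log2 difference of TTPA was -0.098 with a standard error of 0.107, and its highest and lowest libraries, E2 replicate 3 and E2+DHT replicate 3, carry the same number.

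The other 3 members were near the limit of detection. SEC14L4 had 3, 1, 2 and 4 reads in E2+DHT replicates 1 to 4, against 2, 0, 0 and 1 reads in E2. SEC14L5 had 3, 0, 1 and 2 reads in E2+DHT, against 2, 1, 3 and 3 in E2. SEC14L3 had 1, 0, 0 and 1 reads in E2+DHT, against 0, 1, 0 and 0 in E2. A count of 0 allows up to 3 reads of a library, which corresponds to 0.0237 to 0.0583 RPKM for SEC14L3 and SEC14L4 across the libraries. This limit covers counting error only, and reads recovered for such rare genes may be too low. No fold is given for them. SEC14L6 and SEC14L1P1 carry names of the family without being members. SEC14L6 had a mean of 0.0122 RPKM, and SEC14L1P1, a pseudogene, was above 0 in E2+DHT replicate 1 and E2 replicate 3 and at 0 in the other 6 libraries.

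Of the 7 members, 4 passed the filter of a mean of at least 0.5 RPKM. In the fit over all 11375 tested genes 1 of these 4, SEC14L2, was past the threshold as higher in E2+DHT and 0 as lower (limma, Benjamini-Hochberg adjusted p under 0.05), a count that restates how SEC14L2 was chosen and is no test of it. Of all tested genes, 0.185% passed in either direction, 0.176% as higher and 0.00879% as lower. SEC14L2 was also the only tested member without overlap between the treatments. The share without overlap was 3.4% over all tested genes, 1.98% with E2+DHT above E2 and 1.42% with E2+DHT below E2. An unadjusted p under 0.05, used for the gene lists, was reached by 4.47% of all tested genes. Nothing is read from these counts, since the comparison itself led to the choice of SEC14L2.

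The order of the members by RPKM differed between the treatments. In E2+DHT it was TTPAL, SEC14L2, SEC14L1, TTPA, SEC14L4, SEC14L5 and SEC14L3. TTPAL and SEC14L2 were separated there by a narrow margin, since the lowest TTPAL library had 4.35 RPKM and the highest SEC14L2 library 4.34 RPKM. In E2 the order was TTPAL, SEC14L1, TTPA, SEC14L2, SEC14L5, SEC14L4 and SEC14L3. TTPA and SEC14L2 overlapped in E2, with TTPA above SEC14L2 in 3 of 4 libraries. Among the 3 rarest members, neighbours in the order overlapped in both treatments except SEC14L4 and SEC14L5 in E2+DHT, which rest on a few reads.

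The summed level of the 7 members was 11.8, 10.7, 10.2 and 10.6 RPKM in E2+DHT replicates 1 to 4, against 8.57, 7.13, 8.65 and 8.34 RPKM in E2. SEC14L2 made up 28.7% to 36.7% of this sum in E2+DHT and 8.13% to 12.6% in E2. TTPAL made up 38.6% to 43.9% of it in E2+DHT and 52.1% to 57.3% in E2. The ratio of SEC14L2 to SEC14L1 within a library, which no scaling of the library can alter, was 1.38 to 2.12 in E2+DHT and 0.356 to 0.554 in E2. The ratio of SEC14L2 to TTPAL was 0.667 to 0.951 in E2+DHT and 0.142 to 0.226 in E2. These ratios show an unequal change between the members, not which of them moved.

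**Figure D2:**
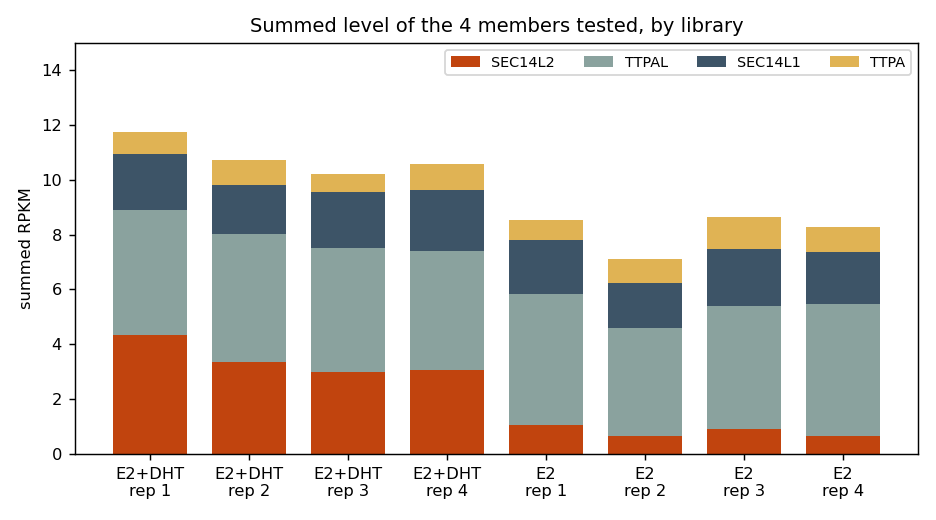
Summed RPKM (vertical axis) of SEC14L2, TTPAL, SEC14L1 and TTPA in each of the 4 E2+DHT and 4 E2 libraries (horizontal axis), stacked by gene. The SEC14L2 segment spans 3.00 to 4.34 RPKM in E2+DHT and 0.643 to 1.08 RPKM in E2.

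Reads of close relatives can be mixed up in counting. In GENCODE 29 transcripts, 0 of the 6735 different stretches of 100 bases in SEC14L2 transcripts occurred in another SEC14L or TTPA gene. Only SEC14L4 and SEC14L6 shared any, 28 stretches. Genes that overlap SEC14L2 are another source. RNF215, a RING finger protein gene on the opposite strand, spans 24915 bases of SEC14L2 in the deposited coordinates. In GENCODE 29, on GRCh38, it shares 0 of the 5985 exonic bases of SEC14L2. The gene RP4-539M6.19 (ENSG00000249590), on the same strand, shares 590 of them, which is 9.86%. How the authors' counting used strand and shared bases is not given in the sources used here.

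The genes beside SEC14L2 were examined to see how far the difference extended along the chromosome. Within 200 kb of either end lay 31 other genes, 6 of them overlapping SEC14L2, and 10 had no read in any library. Of these, 8 passed the level filter. None of the 8 passed the threshold in either direction (limma, adjusted p from 0.821 to 0.999), and 2 had an unadjusted p under 0.05, LIF and RNF215. Of all tested genes, 4.47% reached that unadjusted level. All 8 log2 fold changes were positive, with a median of 0.12, against 56.3% of all tested genes positive and a median of 0.014. The lowest of the 8 libraries was E2 replicate 2 for 6 of these 8 genes and for 3 of the 4 tested members. That library also had the lowest share of reads inside genes, at 78.3%. Without that library the log2 fold change was -0.058 for TBC1D10A and 0.012 (MTFP1) to 0.24 (LIF) for the other 7 neighbours. With all libraries scaled to 1 RPKM sum it was -0.018 for TBC1D10A.

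RNF215 had 3.79, 3.35, 3.39 and 3.33 RPKM in E2+DHT replicates 1 to 4, against 3.43, 2.13, 3.19 and 2.35 RPKM in E2. The groups overlapped through E2 replicate 1, and the log2 fold change was 0.29 (95% interval 0.016 to 0.57, limma adjusted p = 0.999). LIF, a cytokine of the interleukin-6 family, had 2.31, 2.75, 2.89 and 2.98 RPKM in E2+DHT replicates 1 to 4, against 1.98, 1.99, 2.58 and 2.19 RPKM in E2. Its groups overlapped through E2 replicate 3, and the log2 fold change was 0.27 (95% interval 0.059 to 0.48, limma adjusted p = 0.821). MTFP1, a mitochondrial fission protein whose gene starts just past the end of SEC14L2, had 0.16 (95% interval -0.13 to 0.45, limma adjusted p = 0.999). The splicing factor SF3A1 had 0.10, the arginine sensor GATSL3 0.13, the ribosome biogenesis factor PES1 0.12, the vitamin B12 carrier TCN2 0.068 and the Rab regulator TBC1D10A 0.032 as log2 fold changes. SF3A1 was the only neighbour tested whose libraries did not overlap, which held for 3.4% of all tested genes.

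RP4-539M6.19 was below the level filter. It had 0.215, 0.138, 0.0784 and 0.169 RPKM in E2+DHT replicates 1 to 4, against 0.0423, 0.053, 0.0677 and 0.066 RPKM in E2. The libraries of the treatments did not overlap, and 27 reads in E2+DHT and 8 in E2 stood behind them. Because the gene shares exonic bases with SEC14L2, its reads and those of SEC14L2 may not be separate.

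**Figure D3:**
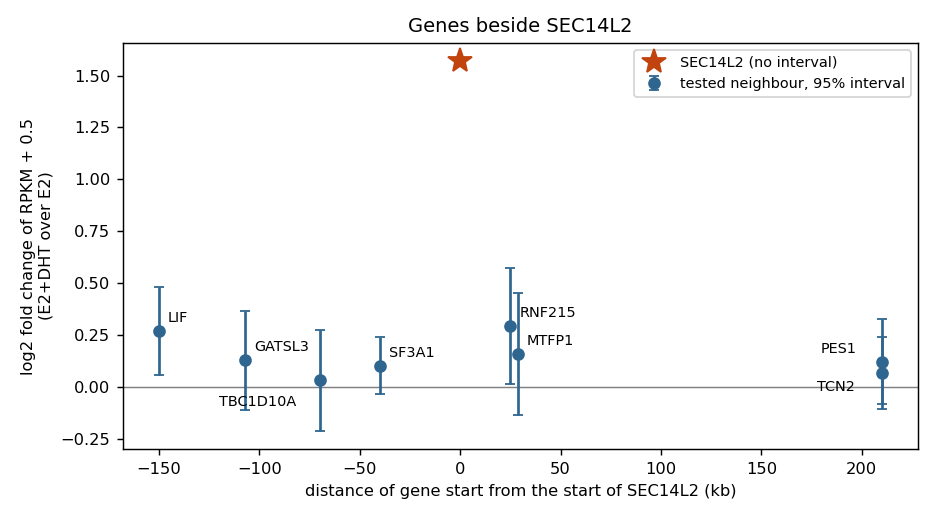
Log2 fold change of RPKM + 0.5, E2+DHT over E2 (vertical axis), of the 8 tested genes within 200 kb of SEC14L2, against the distance of their start from that of SEC14L2 in kb (horizontal axis). Bars are 95% intervals of the limma fit. The neighbours lie between 0.032 and 0.29 and SEC14L2, drawn without an interval, at 1.57.

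Other proteins with the CRAL-TRIO domain showed no gene past the threshold. Of 20 listed genes 10 were tested, 0 were higher, 0 lower and 10 did not pass (limma, adjusted p of 0.999 for each, 0 at an unadjusted p under 0.05). Their median log2 fold change was -0.021. BNIPL, a relative of the apoptosis regulator BNIP2, had 0.635 ± 0.0795 RPKM in E2+DHT and 0.76 ± 0.163 RPKM in E2. SESTD1, a phospholipid-binding protein, had 2.68 ± 0.0718 RPKM in E2+DHT and 2.44 ± 0.163 RPKM in E2. ARHGAP1, a GTPase-activating protein, had 7.15 ± 0.837 RPKM in E2+DHT and 6.66 ± 1.31 RPKM in E2 (SD, n = 4 each throughout).

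The phosphatidylinositol transfer proteins do in human cells what Sec14 does in yeast, with an unrelated fold. Of 6 listed genes 5 were tested and 5 did not pass, 0 higher and 0 lower (limma, adjusted p of at least 0.999, 0 at an unadjusted p under 0.05). Their median log2 fold change was 0.035. The log2 fold change was 0.14 for PITPNM1, 0.11 for PITPNC1 and -0.071 for PITPNB. These values moved as single libraries were left out, though those of PITPNM1 and PITPNC1 stayed positive. The log2 fold change was 0.022 for PITPNM1 without E2 replicate 2 and 0.067 for PITPNC1 without E2 replicate 4. For PITPNB it was 0.039 without E2+DHT replicate 1 and 0.042 without E2 replicate 4.

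A list of 40 other lipid transfer and binding genes came mostly from the START, oxysterol-binding and fatty acid-binding families, with others such as DBI. Its fatty acid-binding protein genes, FABP1 to FABP7, were all below the level filter. Of the 40 genes, 24 were tested and 0 passed in either direction (limma, adjusted p of at least 0.677, 1 at an unadjusted p under 0.05). Among the 24 the median log2 fold change was 0.075 and 15 were positive, against 0.014 and 56.3% over all tested genes. DBI, the acyl-CoA-binding protein, had 83.3 ± 4.33 RPKM in E2+DHT and 71.3 ± 4.24 RPKM in E2 (SD, n = 4 each), and its log2 fold change was 0.22 (adjusted p = 0.677 by limma). The libraries of DBI did not overlap. OSBPL7 had a log2 fold change of 0.21 and OSBPL5 0.12, both oxysterol-binding protein relatives. The log2 fold change of OSBPL7 was 0.10 without E2 replicate 4, and that of OSBPL5 was 0.013 without E2 replicate 2. With the titles' grouping it was -0.063 for OSBPL7 and -0.014 for OSBPL5.

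Most genes that take up, carry or break down vitamin E were below the level filter. Of 16 listed, 5 were tested and 0 passed as higher or lower (limma, adjusted p of 0.999 for each, 0 at an unadjusted p under 0.05). Their median log2 fold change was -0.048. SCARB1, the high density lipoprotein receptor, had 4.84 ± 0.513 RPKM in E2+DHT and 4.64 ± 0.577 RPKM in E2. APOE, a lipoprotein component, had 0.587 ± 0.0458 RPKM in E2+DHT and 0.796 ± 0.509 RPKM in E2 (SD, n = 4 each), with a wide spread in E2 from 0.358 to 1.49 RPKM. Its log2 fold change was -0.18, and 0.057 without E2 replicate 4.

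The sterol pathway holds the step that SEC14L2 stimulates in the test tube. All 20 listed genes were tested and 0 passed as higher or lower (limma, adjusted p of at least 0.999, 0 at an unadjusted p under 0.05). Their median log2 fold change was 0.072 and 17 were positive, against a median of 0.014 and 56.3% positive over all tested genes. The log2 fold change was 0.15 for DHCR7, an enzyme of the last steps of cholesterol synthesis, and 0.040 without E2 replicate 2.

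RIG-I signalling was listed because of SEC14L1. Of 9 genes 9 were tested and 0 passed in either direction (limma, adjusted p from 0.765 to 1.00, 1 at an unadjusted p under 0.05), with a median log2 fold change of 0.0040. IFIH1, a sensor of viral RNA, had 4.36 ± 0.287 RPKM in E2+DHT and 5.06 ± 0.206 RPKM in E2 (SD, n = 4 each), with no overlap of libraries. Its log2 fold change was -0.20 (adjusted p = 0.765 by limma). IRF7 had 0.28 and IRF3 0.17, both transcription factors of the interferon response. For IRF3 it was 0.045 without E2 replicate 2 and 0.30 without E2 replicate 3. Over the 6 lists together 73 different genes were tested, and the largest absolute log2 fold change was 0.28.

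**Figure D4:**
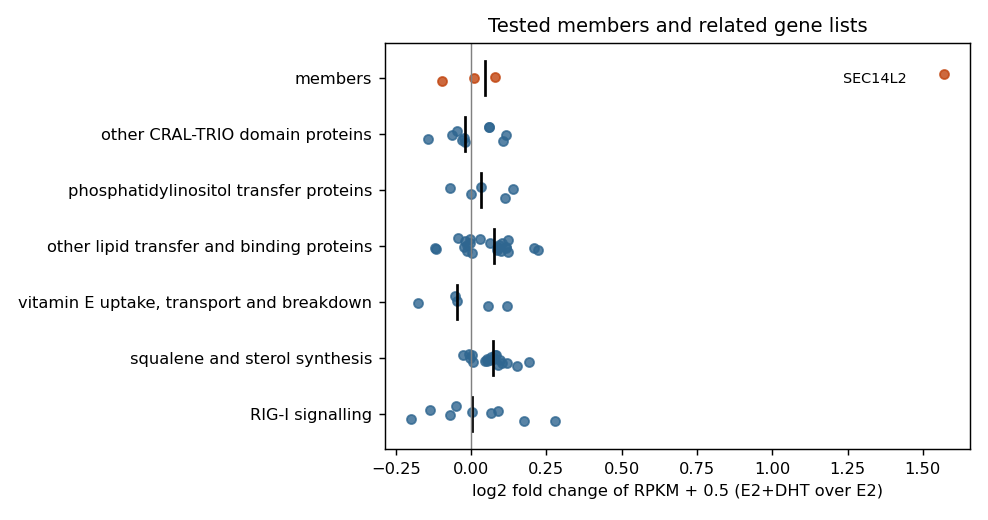
Log2 fold change of RPKM + 0.5, E2+DHT over E2 (horizontal axis), of each tested member and of the tested genes of 6 related lists (rows). Each point is a gene and each vertical bar the median of its row. The 73 listed genes lie within 0.28 of 0 and SEC14L2 at 1.57.

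The 5 genes whose pattern over the 8 libraries was most like that of SEC14L2 were EHF, an ETS family transcription factor (Pearson r = 0.989), AQP3, a water and glycerol channel (r = 0.988), C1orf116, the specifically androgen-regulated gene (r = 0.988), ARHGEF37, a predicted guanine nucleotide exchange factor (r = 0.984), and CLDN8, a tight junction protein (r = 0.983). These values are over 8 libraries and mostly carry the treatment difference. After each treatment's mean was taken away, r with SEC14L2 was 0.86 for EHF, 0.89 for AQP3, 0.75 for C1orf116, 0.87 for ARHGEF37 and 0.73 for CLDN8. The genes were picked by their r over these same libraries, which also favours a high r after the subtraction. The points share libraries and their depth, and no test is attached.

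The sizes differed among these 5 genes. EHF had 24.7 ± 1.95 RPKM in E2+DHT and 16.9 ± 0.878 RPKM in E2, while ARHGEF37 had 1.79 ± 0.231 RPKM in E2+DHT and 1.05 ± 0.0805 RPKM in E2 (SD, n = 4 each). The log2 fold change was 2.35 for C1orf116, 1.90 for AQP3, 1.79 for CLDN8, 0.56 for ARHGEF37 and 0.53 for EHF. All 5 passed as higher over all genes (limma adjusted p from 0.000244 for C1orf116 to 0.0337 for ARHGEF37), but they were picked for their likeness to a gene that differed. In the 8 fits that left out a library, ARHGEF37 passed in none, with adjusted p from 0.0676 to 0.177, and EHF passed only without E2 replicate 1, with adjusted p from 0.0506 to 0.141 in the other fits. AQP3, C1orf116 and CLDN8 passed in every one of these fits.

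**Figure D5:**
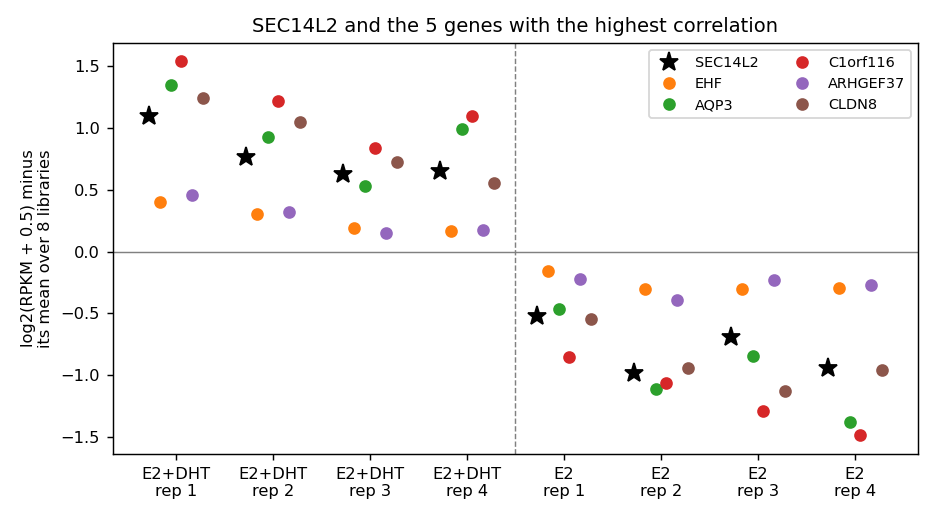
Log2(RPKM + 0.5) minus each gene's mean over the 8 libraries (vertical axis) for SEC14L2 (stars) and the 5 genes with the highest correlation to it (points), in the 4 E2+DHT libraries (left of the dashed line) and the 4 E2 libraries (right). All 6 genes lie above 0 in every E2+DHT library and below 0 in every E2 library, and SEC14L2 is highest in replicate 1 of each treatment.

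The conflict of labels bears on SEC14L2 directly. With groups taken from the record titles, SEC14L2 ranged from 0.677 to 3.05 RPKM in the records titled E2+DHT and from 0.643 to 4.34 RPKM in those titled E2, and its log2 difference was -0.18. In the 4 records on which title and library name give 1 treatment, it had 3.00 and 3.05 RPKM in E2+DHT replicates 3 and 4, against 1.08 and 0.643 RPKM in E2 replicates 1 and 2.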

How the data were processed

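Total RNA of 8 ZR-75-1 samples was sequenced as paired ends from a stranded total RNA kit, per the labels' protocols. The authors deposited RPKM values per gene, on hg19 per the submitters' processing notes. No source used here names the aligner, the counter or the gene models. The deposited gene length, another kind of value, is that of the gene body. Libraries were grouped by library name (4 E2+DHT, 4 E2).

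Values were compared as log2(RPKM + 0.5) for genes with a mean of at least 0.5 RPKM, using limma 3.58.1 under R 4.3.3 with an intensity trend, two-sided, and Benjamini-Hochberg adjusted p-values at a threshold of 0.05. Fold changes are on that scale. The fit was tested on simulated data. Other steps ran in Python 3.11.15 with pandas 2.3.3 and with NumPy 2.4.6, and SciPy 1.17.1 was used beside matplotlib 3.10.9. Whole reads were recovered from the RPKM steps for 27593 of 27594 genes above 0, at a tolerance of 0.0001 reads. The reads carry no molecular identifiers.

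The members and lists were chosen with earlier results of these data known. The text names the members, other rows of their name, tested neighbours, any list gene past the threshold plus the 3 of each list with the largest absolute log2 fold change, the 5 genes most like SEC14L2, and markers. A few genes that this rule names are not reported here. Alternatives were 2 pseudocounts, 2 filters, no trend, 2 scalings, voom on recovered reads, 2 other groupings, the replicate number as a block and leaving out each library.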

Additional observations from a re-analysis of the deposited data

Results flagged for a closer look

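In 4 of 82 groups of 4 libraries, covering the genes named and the depth measures, the highest or lowest library lay apart from the other 3 by more than Dixon's limit. About 1 in 20 groups does so by chance. In E2+DHT, replicate 1 held 3.79 RPKM of RNF215, while the other 3 libraries held 3.33 to 3.39 RPKM. SEC14L3 in E2 was 0.0107 RPKM in replicate 2, which is 1 read, and 0 in the others. In E2, replicate 2 held 1.45 RPKM of MTFP1, while the others held 2.41 to 2.45 RPKM. Also in E2, replicate 1 held 18.2 RPKM of EHF, while the others held 16.4 to 16.6 RPKM. The values of SEC14L2, SEC14L1, TTPAL and TTPA held no such library.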

How the results depend on the processing

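SEC14L2 had a positive log2 difference, and its rank among tested genes was between 3 and 5, under every alternative except the titles' grouping, where the log2 difference was -0.18. It was 1.94 with a pseudocount of 0.1, 1.28 with 1, 2.03 with voom on recovered reads, and 1.47 to 1.66 without single libraries. The 21 genes past the threshold became 5 with no filter, 33 after median centring, 40 with voom and 2 with the titles' groups. They became 6 to 18 without single libraries, and 0 with the 4 records whose treatment labels match (limma, 286 at an unadjusted p under 0.05, fewer samples). Some of these 4 records still differ between title and library name in replicate number. With the replicate number as a block, 72 passed and SEC14L2 stayed at 1.57. Pairing was examined on the values left after each gene's treatment mean was taken away. Across tested genes, those of libraries of equal number correlated at 0.70, 0.45, 0.12 and 0.083 for numbers 1 to 4, all positive. The main fit treats numbers as pairs only if every pair reaches 0.1, which number 4 did not. As a hint of pairing in the data, 6 of 8 libraries correlated best with their own number after that subtraction. Whether the numbers are pairs was not settled, and the standard errors given here take no account of it. The lists and neighbours had 0 genes past the threshold under every alternative. Under the titles' grouping the log2 fold change was -0.12 for EHF, -0.35 for AQP3, -0.42 for C1orf116, -0.087 for ARHGEF37, -0.40 for CLDN8, 0.0080 for SEC14L4, 0.022 for SEC14L5 and 0.092 for TTPA. In the 4 records it was 0.20 for SEC14L1 and -0.0023 for SEC14L5. A pseudocount of 0.1 gave 0.020 for SEC14L3, 0.24 for SEC14L4 and -0.11 for SEC14L5, and median centring -0.015 for SEC14L3, all within a few reads. Voom gave no value for these 3 members. Scaling to 1 RPKM sum shifted the median log2 fold change of all tested genes by -0.067, from 0.014 in the main fit. Leaving out libraries gave 0.028 to 0.13 for SEC14L1, -0.17 to -0.025 for TTPA and -0.046 to 0.037 for TTPAL. The cause was not tested.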
